A study of Mus musculus with 6 samples.

Results

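The circadian clock genes described here are 10 transcripts, Arntl, Clock, Per1, Per2, Per3, Cry1, Cry2, Nr1d1, Nr1d2 and Dbp, taken by gene name from a deposited table of 55401 genes. All 10 were found, each in a single row, and all 10 met the filter on low counts. They were measured by sequencing of polyadenylated RNA in C2C12 myotubes, the multinucleated muscle fibres that the mouse C2C12 myoblast line forms in low-serum medium (2% horse serum). The control group (3 libraries) received GL2 siRNA, which targets firefly luciferase, and the other group (3 libraries) received SENP7 siRNA; SENP7 is a deconjugating protease for SUMO, a small protein tag. Every culture received 100 pmol of siRNA for 3 days, and the labels call the 3 libraries in each arm biological replicates. The time of day or the time since the last medium change at harvest was not found in the sources used here.

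The mammalian clock is a loop of transcription and delayed repression. CLOCK and BMAL1, the product of Arntl, bind E-box elements and switch on the Period (Per) and Cryptochrome (Cry) genes, whose proteins return to the nucleus and inhibit CLOCK and BMAL1. An interlocked loop runs through REV-ERB alpha and beta, the products of Nr1d1 and Nr1d2, which repress Arntl through the elements that ROR receptors use to activate it. Dbp is a direct output of CLOCK and BMAL1 and encodes a D-box activator. Cultured cells, myotubes included, carry this loop, and their clocks drift out of step unless a stimulus aligns them. A bulk level at a single time can therefore average over cells in different phases. Whether the cells here were in step was not measured. BMAL1 is a known SUMO target. In the deposited coordinates (GRCm38.p6), the activator genes lie, with the strand in brackets, as follows: Arntl at chr7:113207465-113314126 (plus) and Clock at chr5:76209868-76304792 (minus). The Period genes are Per1 at chr11:69095217-69109960 (plus), Per2 at chr1:91415982-91459324 (minus) and Per3 at chr4:151003652-151044665 (minus). The remaining members are Cry1 at chr10:85131700-85185064 (minus), Cry2 at chr2:92403646-92434043 (minus), Nr1d1 at chr11:98767932-98775333 (minus), Nr1d2 at chr14:18204054-18239127 (minus) and Dbp at chr7:45705088-45710203 (plus).

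Sequencing depth was 25223218 to 30865945 reads assigned to genes per library; the summed normalized counts of the 10 clock genes were 8749.8, 9319.9 and 10133 in the controls and 9641, 9600.4 and 10126 under SENP7 siRNA. Values below are the authors' normalized read counts, in which a count of 1 is worth about 1 read, given for replicates 1, 2 and 3 in that order. Fold changes are on the scale of log2(normalized count + 1), with positive values higher under SENP7 siRNA, and carry limma's SE, a 95% interval and a Benjamini-Hochberg adjusted p over the 14668 genes in the test. A gene was called when its adjusted p was below 0.05, and 20.9% of all tested genes were called. Senp7 itself fell from 607 ± 46.9 to 300.3 ± 40.2 (SD, n = 3 per group). The myotube markers Myog, Mymk, Ckm, Acta1, Myh3 and Tnnt3 summed to 395088 to 424596 in the controls and 467838 to 538444 under SENP7 siRNA. Of these 6 markers, 2 were called higher (Ckm and Mymk). Proliferation markers summed to 5231 to 7199 in the controls and 4643 to 6070.0 under SENP7 siRNA (0 of 4 called), and undifferentiated myoblast markers to 1337 to 1689.6 and 1943 to 2777 (2 of 3 called higher). Fibroblast markers summed to 1044 to 1727 and 2024 to 2525 (1 of 2 tested called higher, of 4), osteoblast markers to 1172 to 1335 and 964 to 1266 (0 of 3 tested called, of 4) and adipocyte markers to 97.3 to 116 and 108 to 117 (0 of 1 tested called, of 4). Thy1, Bglap, Adipoq, Plin1 and Fabp4 were at or near 0. The part of these differences in the clock values was not tested. Control replicate 3 stood apart from the other controls: 4702 genes were called without it, against 3062 with all libraries.

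Regulatory sequence is shown first for some of the members, none of which was called with all libraries. Windows of 300 bases (250 before to 50 after the start) were available from RefSeq (GRCm38.p6) for 9 of 10 members, all but Per2, at 13 start sites. Both strands were searched for the E-box (CACGTG), the variant E-box (CACGTT), the D-box (TTATGTAA or TTACGTAA), the core of the ROR element (AGGTCA) and the cyclic AMP element (TGACGTCA). Per1, Cry1 and Cry2 are shown because they are the 3 members whose SENP7 values all lay above the controls, as in 19.3% of all tested genes. Arntl is shown because, with all libraries, it had the largest difference downward. Capitals mark the matches. They lie at chr11:69098699-69098998 (plus strand, Per1), chr10:85185005-85185304 (minus strand, Cry1), chr2:92434020-92434319 (minus strand, Cry2) and chr7:113207261-113207560 (plus strand, Arntl).
Per1: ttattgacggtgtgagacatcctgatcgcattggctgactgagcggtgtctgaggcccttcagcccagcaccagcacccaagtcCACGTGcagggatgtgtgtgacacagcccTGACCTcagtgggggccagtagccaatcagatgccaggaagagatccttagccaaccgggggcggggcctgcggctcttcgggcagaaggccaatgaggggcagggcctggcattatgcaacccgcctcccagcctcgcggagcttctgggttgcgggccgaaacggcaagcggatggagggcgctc
Cry1: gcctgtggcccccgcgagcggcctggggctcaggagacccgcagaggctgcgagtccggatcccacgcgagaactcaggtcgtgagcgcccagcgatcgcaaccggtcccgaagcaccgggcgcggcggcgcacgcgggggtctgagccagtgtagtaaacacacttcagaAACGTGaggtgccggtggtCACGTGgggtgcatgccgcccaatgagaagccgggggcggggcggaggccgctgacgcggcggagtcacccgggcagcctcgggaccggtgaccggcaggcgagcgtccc
Cry2: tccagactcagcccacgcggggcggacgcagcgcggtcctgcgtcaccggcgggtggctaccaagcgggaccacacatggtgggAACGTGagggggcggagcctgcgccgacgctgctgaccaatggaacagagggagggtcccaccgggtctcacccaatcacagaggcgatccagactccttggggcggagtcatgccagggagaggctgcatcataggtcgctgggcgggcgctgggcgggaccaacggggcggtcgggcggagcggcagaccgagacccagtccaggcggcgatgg
Arntl: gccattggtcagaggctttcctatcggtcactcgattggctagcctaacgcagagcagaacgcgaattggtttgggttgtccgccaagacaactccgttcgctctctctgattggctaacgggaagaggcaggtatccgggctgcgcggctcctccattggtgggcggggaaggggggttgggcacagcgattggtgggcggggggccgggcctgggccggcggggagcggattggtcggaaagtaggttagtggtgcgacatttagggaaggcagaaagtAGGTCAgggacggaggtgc

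Per1 held an E-box and an AGGTCA core, the latter on the opposite strand, Cry1 an E-box and a variant E-box, Cry2 a variant E-box, and Arntl an AGGTCA core near its start. The other listed start of Per1 (chr11:69099902-69100201) and that of Arntl (chr7:113207215-113207514) held no match of any motif. Over all members an E-box was found at 2 of 13 start sites, a variant E-box at 3, AGGTCA at 4 and a D-box at 1 (Per3, with 2 matches), and the cyclic AMP element at 0. Among all 32851 promoter windows of the same length, 7.15% held an E-box, 4.68% the variant, 16.3% AGGTCA, 1.06% a D-box and 1.79% the cyclic AMP element. A match describes letters in the window only.

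No core clock transcript was called between SENP7 siRNA and control. With limma 0 of 10 were called, where 20.9% of all tested genes were, and edgeR (20.8% of all genes, or 20.7% with TMM scaling), DESeq2 (20.5%) and limma-voom (20.7%) on the recovered reads also called 0. Other pseudocounts (20.8% and 21.1%), filters (11.3% and 22.3%) and scalings (20.8% and 21.1%) and limma without robust estimation and trend (15.3%) gave 0 as well. At an unadjusted p below 0.05 there were 2 of 10 (Per1 and Cry2), where 34.4% of all tested genes were. The median log2 fold change was 0.06, and the median size of the change without its sign was 0.11 against 0.17 over all tested genes. Groups did not overlap for 3 of 10 members, where 39.6% of all tested genes did not overlap; all 3 were higher, as were 19.3% of all tested genes, and 20.4% were lower. In a bulk sample fewer cells of a type and less RNA per cell cannot be told apart, and this holds for every value here. In the authors' deposited table the adjusted p of the 10 genes ran from 0.173 to 0.992, and 9.26% of its genes with an adjusted p were below 0.05. The count became 1 higher (Per1) and 1 lower (Arntl) without control replicate 3, where 32.1% of all genes were called, and also without both replicates numbered 3 (33.7%), a setting chosen after seeing the data. Leaving out SENP7 replicates 1, 2 or 3 or control replicates 1 or 2 gave 0 of 10 members, against 11.3%, 11%, 15%, 16.4% and 11.1% of all genes. With the replicate number as a block, Per1 was called higher, where 28.5% of all genes were called.

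**Figure D1:**
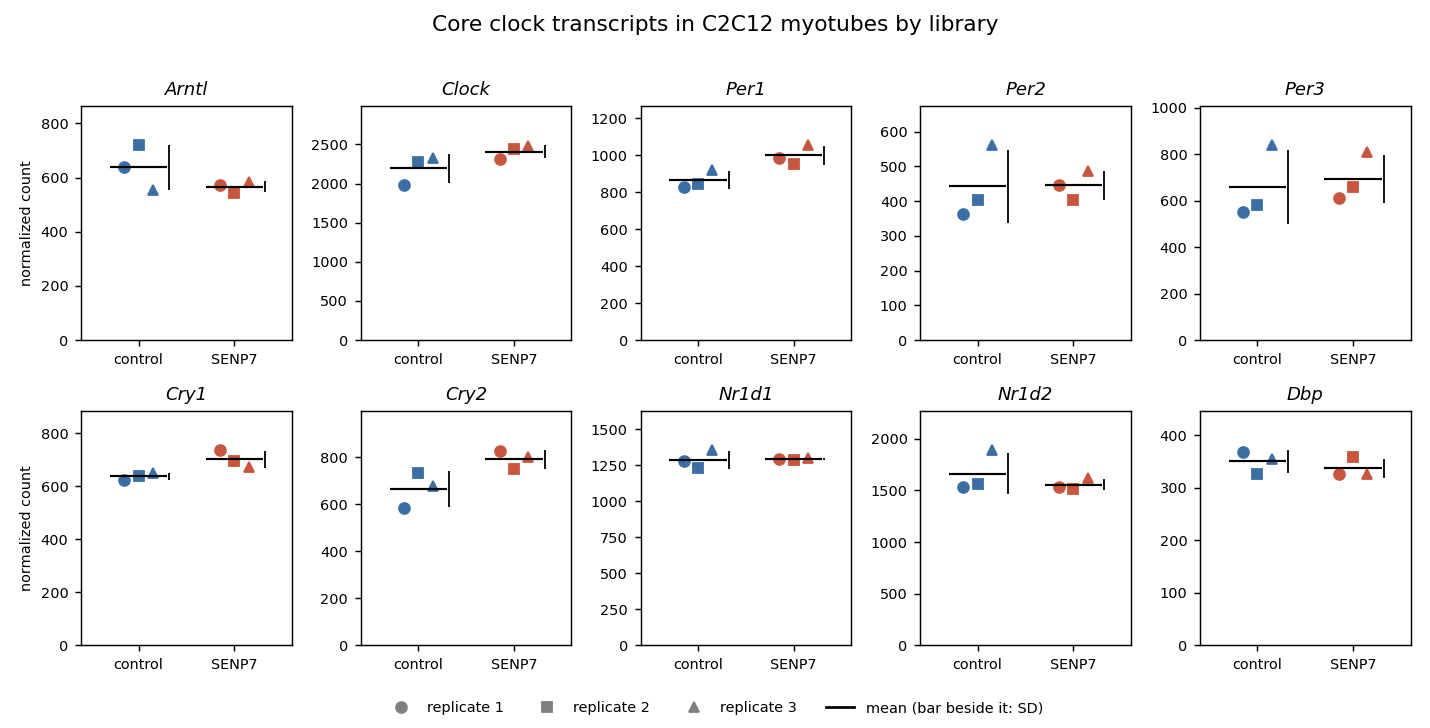
Normalized read counts (y axis, from 0, a separate scale per gene) of the 10 core clock genes in the 3 control and 3 SENP7 siRNA libraries; markers are replicates, the horizontal line is the mean and the bar beside it the SD. The 3 SENP7 values lie above all 3 controls in Per1, Cry1 and Cry2, and the groups overlap in the other 7 genes.

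Among the activators, Arntl had the largest difference downward of the 10 with all libraries in the fit. Arntl encodes BMAL1, the partner without which the loop stops. Its counts were 639, 721 and 554 in the controls and 574, 543 and 583 under SENP7 siRNA. Control replicate 3 lay among the SENP7 values and the other controls lay above them. The mean went from 638 ± 83.2 to 567 ± 20.6 (log2 fold change -0.16 ± 0.10 SE, adjusted p = 0.276), and the interval of the fold ran from 0.766 to 1.04. Without control replicate 2 the log2 fold change of Arntl was -0.07, smaller in size than those of Nr1d2 (-0.13) and Dbp (-0.10) in that fit. Without control replicate 3 it was -0.26 and Arntl was called (adjusted p = 0.0288), against an adjusted p of 0.0202 to 0.668 over all settings tried. Clock, the histone acetyltransferase partner of BMAL1, had counts of 1982, 2277 and 2329 in the controls and 2311, 2440.2 and 2475 under SENP7 siRNA. Control replicates 2 and 3 were close to the SENP7 values, and control replicate 1 was the lowest library. Clock thus had a log2 fold change of 0.14 ± 0.07 (adjusted p = 0.219, fold interval 0.981 to 1.23), which was 0.06 without control replicate 1.

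The Period genes encode the rate-limiting repressors, and Per1 and Per2 also respond quickly to serum and hormones. Per1 counts were 829.5, 846 and 919 in the controls and 987, 952 and 1056 under SENP7 siRNA. All SENP7 values lay above all controls, by a small step. The mean of Per1 went from 865 ± 47.8 to 998 ± 53.0, a log2 fold change of 0.21 ± 0.07 with a fold interval of 1.03 to 1.29, and it missed the threshold after adjustment (adjusted p = 0.0666). It was called without control replicate 3 (log2 fold change 0.25, adjusted p = 0.0169), and its adjusted p ranged from 0.0169 to 0.193 over all settings. Per2 counts were 364, 403 and 562 in the controls and 445, 402 and 488 under SENP7 siRNA. The SENP7 libraries lay inside the range of the controls. Per2 had a log2 fold change of 0.03 ± 0.15 (adjusted p = 0.919), with a fold interval of 0.802 to 1.30. Per3, which encodes a weaker repressor, had counts of 549, 582 and 840.4 in the controls and 610.4, 659 and 807 under SENP7 siRNA. Here too the controls spanned the SENP7 values. Its log2 fold change was 0.09 ± 0.16 (adjusted p = 0.732, fold interval 0.825 to 1.38), the widest interval of the 10 beside that of Per2. The sign of Per2 and of Per3 turned when single libraries were left out.

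The Cryptochromes, which bind CLOCK and BMAL1 directly and block them, both had higher values under SENP7 siRNA in every library. Cry1 counts were 623, 637 and 651 in the controls and 736, 696 and 673 under SENP7 siRNA. The lowest SENP7 value exceeded the highest control by little. Cry1 had a log2 fold change of 0.14 ± 0.07 (adjusted p = 0.176, fold interval 0.992 to 1.22). Cry2 counts were 585, 733 and 676 in the controls and 824, 748 and 800.5 under SENP7 siRNA. Control replicate 2 came close to SENP7 replicate 2, and control replicate 1 was the lowest library. With all libraries Cry2 had the largest difference of the 10 genes, with a mean of 665 ± 74.9 against 791 ± 39.1 (log2 fold change 0.26 ± 0.09, adjusted p = 0.0799, fold interval 1.03 to 1.38). Without control replicate 1 the log2 fold change of Cry2 was 0.17, below that of Per1 (0.18) in the same fit. No setting called Cry1 or Cry2, and the lowest adjusted p of Cry2 was 0.0502. Exons of D930015M05Rik lie on the opposite strand over 4.67% of the Cry2 exon length, and that gene had no reads in any library.

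The repressors of the second loop showed little difference. Nr1d1 encodes REV-ERB alpha, a haem-binding nuclear receptor. Its counts were 1277, 1233 and 1356 in the controls and 1292, 1289 and 1302 under SENP7 siRNA. All SENP7 libraries lay within the controls and within 1.01-fold of each other. For Nr1d1 the log2 fold change was 0.01 ± 0.06 (adjusted p = 0.946), with a fold interval of 0.916 to 1.10. The 3' end of Nr1d1 overlaps Thra, a thyroid hormone receptor gene transcribed from the other strand, along 8.55% of the Nr1d1 exons. Thra had a mean of 1313 in the controls and 1783 under SENP7 siRNA, and since the sources used here name no strand setting for the counting, reads of the shared stretch cannot be assigned with certainty. Nr1d2, which encodes REV-ERB beta, had counts of 1533, 1561 and 1889 in the controls and 1534, 1512 and 1615 under SENP7 siRNA. Control replicate 3 was the highest library and the other 5 lay close together. For Nr1d2 the difference on the log2 scale was -0.09 ± 0.08 (adjusted p = 0.492, fold interval 0.823 to 1.07). Without control replicate 3 it was 0.0056.

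Dbp is the classical readout of CLOCK and BMAL1 activity and has among the largest daily swings in most tissues. Its counts were 369, 327 and 356 in the controls and 327, 358 and 327 under SENP7 siRNA. The groups were interleaved. Dbp had a log2 fold change of -0.06 ± 0.09 (adjusted p = 0.694, fold interval 0.839 to 1.10). Exons of Sphk2, a sphingosine kinase gene on the opposite strand with means of 905 and 785, lie over 18% of the Dbp exon length, with the same limit on strand as for Nr1d1.

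**Figure D2:**
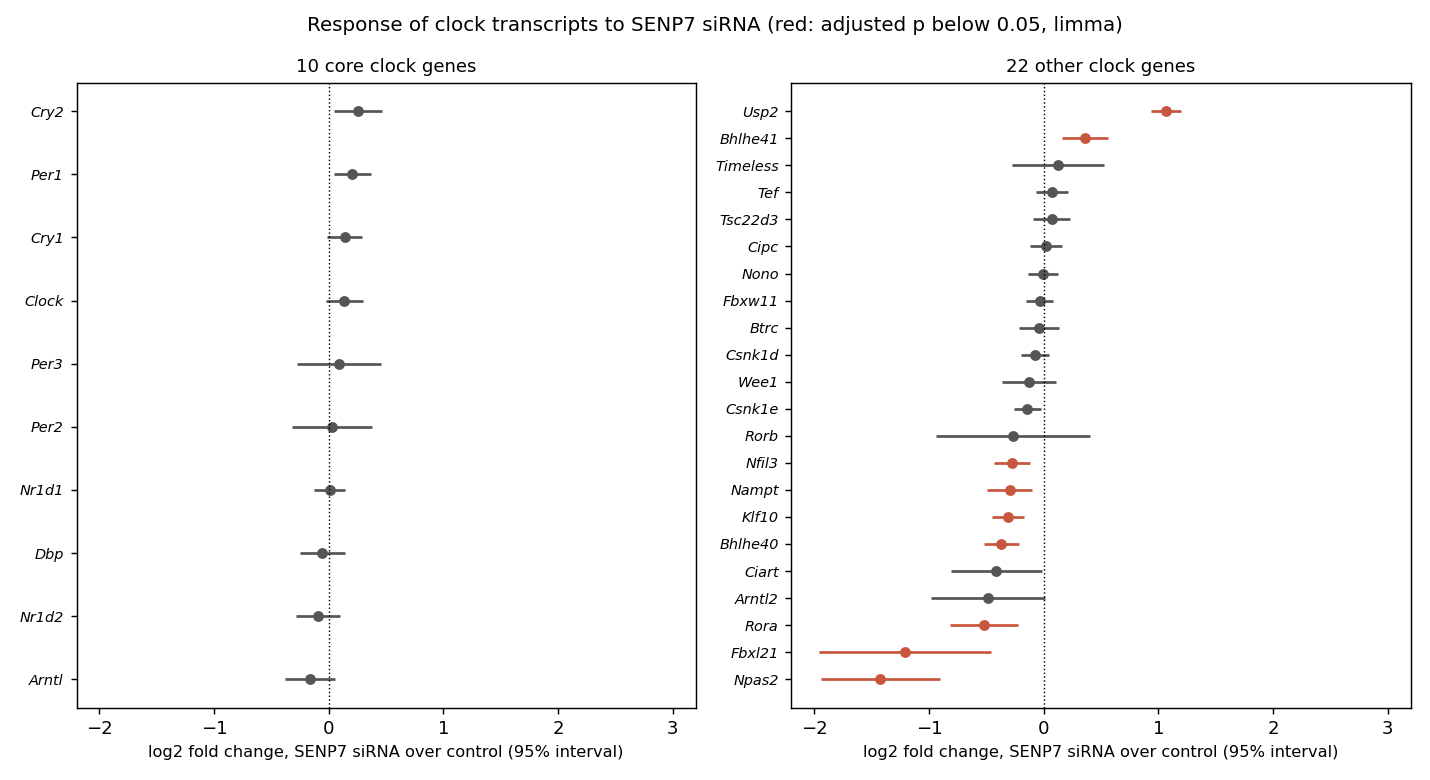
Log2 fold change between SENP7 siRNA and control (x axis, positive where higher under SENP7 siRNA) with its 95% interval for the 10 core clock genes (left) and the 22 tested other clock genes (right); red marks genes called at an adjusted p below 0.05 by limma. No core gene is red and their intervals stay between -0.39 and 0.46, whereas 9 other clock genes are red, from Npas2 at -1.43 to Usp2 at 1.07.

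Whether related members responded differently was tested on the log2 ratio of their counts within each library, by a two-sided exact permutation test over the 6 libraries, for 6 pairs. With 3 libraries against 3 the smallest p this test allows is 0.10, so no pair could reach 0.05. The ratio of Arntl to Clock went from -1.79 ± 0.25 to -2.09 ± 0.08 on the log2 scale (SD, n = 3, exact permutation p = 0.2, adjusted p = 0.45 over the 6 pairs). Control replicate 3, at -2.07, lay among the SENP7 values of -2.01, -2.16 and -2.08. For Per1 over Per2 the ratio went from 0.99 ± 0.25 to 1.17 ± 0.07 (exact permutation p = 0.3), for Cry1 over Cry2 from -0.05 ± 0.15 to -0.17 ± 0.07 (exact permutation p = 0.3), and for Nr1d1 over Nr1d2 from -0.36 ± 0.11 to -0.26 ± 0.04 (exact permutation p = 0.2), each with an adjusted p of 0.45. Per1 over Per3 and Per2 over Per3 differed by 0.12 and -0.06 (exact permutation p = 0.7 and 0.5, adjusted 0.7 and 0.6). Single libraries moved several of these differences. Without control replicate 3 that of Per1 over Per2 was 0.039 (0.18 with all libraries) and that of Nr1d1 over Nr1d2 0.039 (0.10 with all). That of Cry1 over Cry2 was -0.04 without control replicate 1 and -0.19 without control replicate 2 (-0.12 with all).

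Levels can be set between genes only per length, here as normalized counts per kilobase of exon. In the controls Nr1d1 was the highest, at 419 ± 20.3, followed by Nr1d2 at 307 ± 36.6 and Cry1 at 191 ± 4.17. These 3 did not overlap with their neighbours. Clock (160.0 ± 13.6) and Per1 (154 ± 8.49) overlapped with each other, as did Dbp (117 ± 7.15) with Cry2 (105 ± 11.9), Cry2 with Arntl (84.8 ± 11.1), Arntl with Per2 (75.6 ± 18) and Per2 with Per3 (68.4 ± 16.6). Under SENP7 siRNA Nr1d1 (421 ± 2.13), Nr1d2 (287 ± 10.1) and Cry1 (210.1 ± 9.66) again led, and Per3 (72.0 ± 10.7) was again the lowest. Among these 10 genes the REV-ERB transcripts were the most abundant per length in both groups.

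Libraries of the same group differed most in Per2 and Per3. In Per2 the controls spanned 1.55-fold and in Per3 1.53-fold, while the group means differed by 1.01-fold and 1.05-fold. Control replicate 3 was above the mean of the other controls by 1.49-fold in Per3, 1.47-fold in Per2 and 1.22-fold in Nr1d2, and in Arntl it was at 0.815 of that mean. SENP7 replicate 3 was likewise the highest of its group in Per3 (1.27-fold above the others) and Per2 (1.15-fold). Replicate 3 gave the highest value of its group in 7 of 10 members in the controls and in 7 of 10 under SENP7 siRNA, and in 6 (Clock, Per1, Per2, Per3, Nr1d1 and Nr1d2) in both groups. Over all tested genes these shares were 38%, 38.1% and 20.6%. Arntl was the lowest of the controls in replicate 3 but the highest of the SENP7 libraries there. Summed marker levels were also highest in replicate 3 of both groups for the fibroblast (1727 and 2525), myoblast (1689.6 and 2777) and osteoblast lists (1335 and 1266). Runx2 made up most of the osteoblast sum (1304 and 1241 in replicate 3). Alpl and Sp7 were not the highest of the controls in replicate 3 (14.6 and 12.6) but were so under SENP7 siRNA (12.3 and 10.4). Within the myoblast list Pax7 and Id3 were highest in replicate 3 of both groups. Myf5 was instead the lowest of the controls there (314) and not the highest of the SENP7 group (325). The proliferation sum was the highest of the controls in replicate 3 (7199) and the lowest of the SENP7 group there (4643). So was the myotube sum (424596 and 467838). Within the myotube list Myog, Mymk, Ckm, Acta1 and Tnnt3 were the lowest of their group in replicate 3 of both groups. Ckm, for example, was at 9012 and 21728 there. Myh3 was instead the highest of the controls in replicate 3 (206280) and the lowest of the SENP7 group (213818). The part of these markers in the replicate 3 pattern was not tested.

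**Figure D3:**
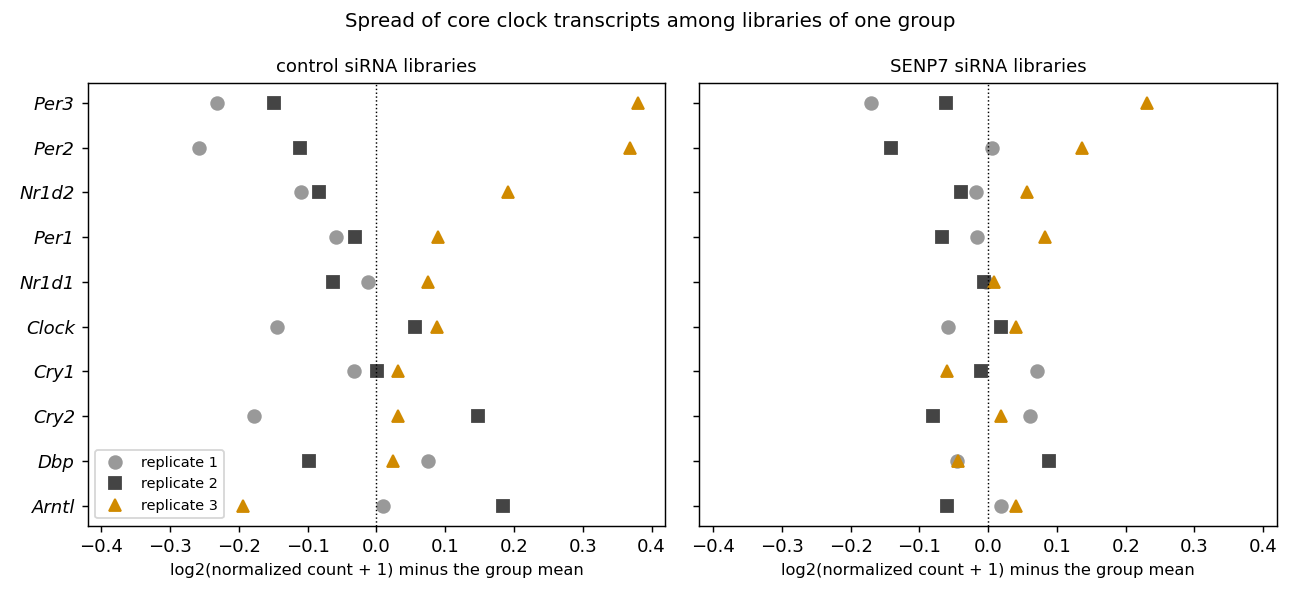
Deviation of each library from its group mean, as log2(normalized count + 1), for the 10 core clock genes in the control (left) and SENP7 siRNA libraries (right). Replicate 3 (orange triangles) lies highest in Per3, Per2, Nr1d2, Per1, Nr1d1 and Clock in both panels, and reaches 0.38 for Per3 and -0.19 for Arntl in the controls.

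Some other genes of the clock network were called. Of 23 further genes, covering paralogs, the ROR and DEC arms, PER and CRY turnover and common clock outputs, 22 were tested, and 2 were called higher and 7 lower. Over all tested genes 10.2% were called higher and 10.7% lower. The list was chosen with earlier results of these data known, so its counts are a description. Of the 9 calls, 5 were lost in at least 1 setting. Hlf, a D-box factor, did not meet the filter (means of 7.46 and 3.50 counts). The median log2 fold change of the 22 was -0.13, against -0.0025 over all tested genes, and groups did not overlap in 11 of 22 (2 higher and 9 lower), where 39.6% of all tested genes did not overlap (19.3% higher and 20.4% lower). The adjusted p in the authors' deposited table was below 0.05 for 7 of the 23, and for 9.26% of its genes with an adjusted p. Of the 9 genes called here, Rora (0.0605) and Fbxl21 (0.263) were the exceptions. Genes called lower numbered 4, 3 and 4 without SENP7 replicates 1, 2 and 3. Of all tested genes, 11.3%, 11% and 15% were called in those fits, in either direction. Without control replicate 1 or 2 the genes called lower numbered 3 (16.4% and 11.1% of all genes called). Without control replicate 3 they numbered 7 (32.1% of all genes called). Genes called higher numbered 2 without control replicate 3 and 1 without any other single library.

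Among the activators, Npas2, which encodes the paralog that can stand in for CLOCK as partner of BMAL1, fell. Its counts were 57.5, 81.2 and 65.2 in the controls and 18.6, 25.7 and 30.3 under SENP7 siRNA. No SENP7 library reached the lowest control. The mean of Npas2 went from 67.9 ± 12.1 to 24.9 ± 5.88 (log2 fold change -1.43 ± 0.23, adjusted p = 0.0032), a 2.73-fold fall. Per kilobase of exon, Npas2 made up 7.42% to 9.27% of the sum of Npas2 and Clock in the controls and 2.26% to 3.39% under SENP7 siRNA, so Clock was the main transcript of the pair in all 6 libraries. Arntl2, the paralog of Arntl, was not called (68.1 ± 8.95 and 49.2 ± 12.7, log2 fold change -0.49, adjusted p = 0.152).

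Rora encodes a nuclear receptor that activates Arntl through the element that REV-ERB blocks. Its counts were 133, 127 and 146 in the controls and 105, 92.0 and 86.2 under SENP7 siRNA. Every SENP7 library was below every control. Rora fell by 0.52 ± 0.13 on the log2 scale (adjusted p = 0.0228). Rora was no longer called when control replicate 1 (adjusted p = 0.0524) or 2 (0.0568), SENP7 replicate 2 (0.083) or 3 (0.0686), or both replicates numbered 3 (0.0507) were left out; its adjusted p ran from 0.0174 to 0.083 over all settings. Rorb, at 26.1 ± 8.45 and 21.3 ± 5.76, was not called (log2 fold change -0.27, adjusted p = 0.569). Nfil3, the D-box repressor that opposes Dbp, fell from 1182 ± 89.3 to 973 ± 16.8 (log2 fold change -0.28 ± 0.07, adjusted p = 0.0216). That call was lost without control replicate 1 (adjusted p = 0.05004) or 2 (0.0812), without SENP7 replicate 1 (0.0909) or 2 (0.0816), and by limma without robust estimation and trend (0.0566), within 0.00166 to 0.0909 over all settings. Tef, a D-box activator related to Dbp, was at 4382 ± 245 and 4606 ± 135 and was not called (adjusted p = 0.449).

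The transcripts of Bhlhe40 and Bhlhe41, which encode the E-box repressors DEC1 and DEC2, changed in opposite directions. Bhlhe40 counts were 11146, 10616 and 10493 in the controls and 8220.4, 7861 and 8921 under SENP7 siRNA. Every SENP7 library was below every control. Bhlhe40 had a log2 fold change of -0.37 ± 0.07 (adjusted p = 0.00635). Bhlhe41 counts were 2263, 2118 and 2706 in the controls and 3079, 2942 and 3031 under SENP7 siRNA. Control replicate 3 lay between the other controls and the SENP7 libraries. The rise of Bhlhe41 was 0.36 ± 0.09 on the log2 scale (adjusted p = 0.0194). This call was lost when control replicate 1 (adjusted p = 0.0579) or 2 (0.0845) or any 1 SENP7 library (0.0574 to 0.0767) was left out, and by limma without robust estimation and trend (0.0666), within 9.46e-05 to 0.0845 over all settings. Per kilobase, Bhlhe40 was 5.54 to 7.16 times Bhlhe41 in the controls and 3.81 to 4.20 times under SENP7 siRNA. Exons of Gm43909 lie on the opposite strand over 19% of the Bhlhe41 exon length, with means of 7.23 and 3.66 counts. Ciart, which encodes the repressor CHRONO, was lower without being called (137 ± 22.4 and 103 ± 17.7, log2 fold change -0.41, adjusted p = 0.133).

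Usp2 rose, with the lowest p of the list. Usp2 encodes a deubiquitinase that acts on PER1, CRY1 and BMAL1 and is itself rhythmic in many tissues. Its counts were 755, 748 and 749 in the controls and 1529.6, 1567 and 1627 under SENP7 siRNA. The controls lay close together, and every SENP7 library was above them by about the same step (2.1-fold between the means). The log2 fold change of Usp2 was 1.07 ± 0.06 (adjusted p = 1.85e-05, fold interval 1.92 to 2.29), and it ranked 11th by p of 14668 genes. Most other genes of PER and CRY turnover did not pass the test. The casein kinase genes Csnk1d (log2 fold change -0.07, adjusted p = 0.374) and Csnk1e (-0.14, adjusted p = 0.0929), and the ubiquitin ligase genes Btrc (-0.04) and Fbxw11 (-0.04), were not called. Exons of Slc16a3, with means of 2768 and 1272, lie on the opposite strand over 5.74% of the Csnk1d exon length. The limit on strand given for Nr1d1 holds there too. Fbxl21, which encodes an F-box protein that acts on CRY, was called lower from 12.2 ± 2.29 to 4.76 ± 1.28 (log2 fold change -1.21 ± 0.33, adjusted p = 0.0315). This rests on 36 reads over the controls and 15 over the SENP7 libraries. Leaving out any 1 library ended the call of Fbxl21 (adjusted p of 0.0511 to 0.0958), as did leaving out both replicates numbered 3 (adjusted p = 0.123) and DESeq2 (adjusted p = 0.142), within 0.0119 to 0.142 over all settings.

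Among clock outputs, Klf10, a clock-driven transcription factor gene of metabolism, fell from 2830.1 ± 157 to 2278 ± 70 (log2 fold change -0.31 ± 0.06, adjusted p = 0.00792). Nampt, which encodes the rate-limiting enzyme of NAD salvage, fell from 1345 ± 164 to 1089 ± 10.3 (log2 fold change -0.30 ± 0.09, adjusted p = 0.0428). Nampt was no longer called when control replicate 1 (adjusted p = 0.114) or 2 (0.166) or any 1 SENP7 library (0.107 to 0.125) was left out, nor by limma without robust estimation and trend (0.104), within 0.000409 to 0.166 over all settings. Wee1, a mitotic kinase gene, was not called (log2 fold change -0.13, adjusted p = 0.421), nor was the glucocorticoid-induced Tsc22d3 (0.07, adjusted p = 0.53). The remaining genes not called, Cipc, Timeless and Nono, had log2 fold changes of 0.02, 0.13 and -0.00. Of the 9 calls in this list, 4 (Npas2, Bhlhe40, Usp2 and Klf10) held in every setting that tested the gene.

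**Figure D4:**
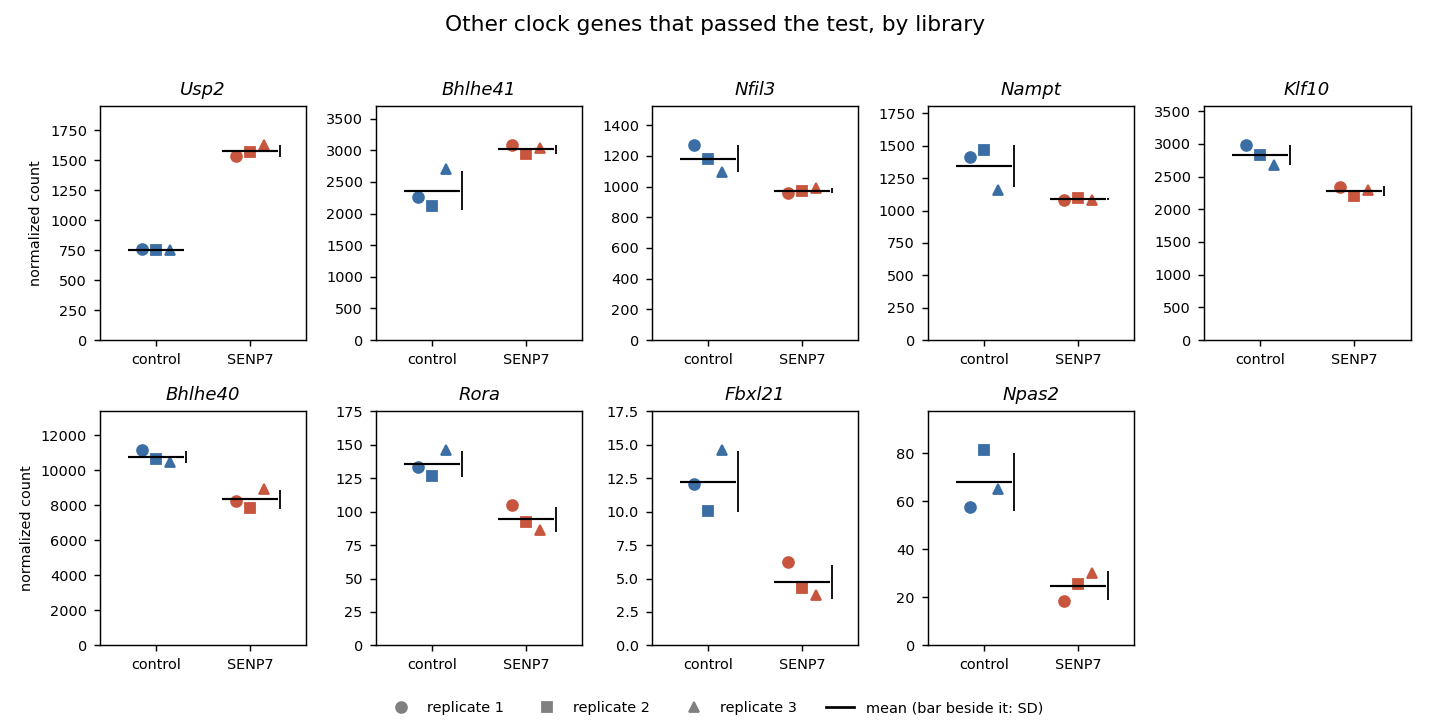
Normalized read counts (y axis, from 0, a separate scale per gene) of the 9 other clock genes called at an adjusted p below 0.05, in the 3 control and 3 SENP7 siRNA libraries; markers are replicates, the line is the mean and the bar beside it the SD. Usp2 and Bhlhe41 are higher under SENP7 siRNA and the other 7 are lower, without overlap between groups in any of them.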

How the data were processed

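Per the submitters' processing notes, the authors' tools included featureCounts 1.6.4, STAR 2.6.1d, DESeq2, Trim Galore 0.6.4 and bcl2fastq, and the build was GRCm38.p6; no strand setting or DESeq2 version was found in the sources used here. Each deposited signal value was taken as a normalized read count. The headers of the signal columns give library codes and name no measure. In every library 100% of values above 0 fell within 0.1 read of a whole multiple of a library-specific step. For the largest counts a wider margin, in proportion to the count, was allowed. Dividing by that step gave the reads. A unit check did not accept this for control replicate 1, whose step of 1.008 is close to 1. Its reads were recovered in the same way as the others. The authors' deposited log2 fold change, with its standard error and Wald score, and their deposited p-value and adjusted p-value, stood beside the normalized counts. Of the 55401 genes, 987 had a blank name.

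limma 3.58.1 (R 4.3.3), with robust empirical Bayes and a trend, was fitted to log2(normalized count + 1) for genes with at least 10 counts in at least 3 libraries, with group as the only term. Tests were two-sided. It was tested on simulated data. Alternatives were edgeR 4.0.16 (with and without TMM), DESeq2 1.42.0 and limma-voom on the reads, other pseudocounts, filters and scalings, limma without robust estimation and trend, a replicate block and each library left out; leaving out both replicates numbered 3 was added after seeing the data. Named were all members, Senp7, called genes of the list of 23 other clock genes, and the 3 genes most correlated with Arntl and with Nr1d1; other genes of the list were named after their values were seen. Some items of that list are not reported here, and its counts leave them out. The members and lists were chosen with earlier results of these data known. Exon overlaps come from the deposited coordinates and promoters from RefSeq.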

Additional observations from a re-analysis of the deposited data

How the results depend on the processing

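With the replicate number as a block, 1 member was called higher (Per1, adjusted p = 0.0289) and 0 lower, with 2 higher and 8 lower in the other list and 4175 genes in all. The block was not used as a pairing. Deviations of same-numbered libraries correlated at 0.13, 0.06 and 0.25, and control replicate 1 correlated best with SENP7 replicate 2 (0.14). Control replicate 3 correlated at -0.15 and -0.16 with SENP7 replicates 1 and 2. SENP7 replicate 3 correlated at -0.22 and -0.1 with control replicates 1 and 2, so the libraries numbered 3 were most alike across the groups. Over the fits leaving out 1 library, members called higher ranged from 0 to 1 and lower from 0 to 1, other clock genes called higher from 1 to 2 (2 with all libraries) and lower from 3 to 7 (7 with all libraries), and all genes called from 1619 to 4702. By limma without robust estimation and trend, 1 other clock gene was called higher and 5 lower, where 15.3% of all genes were called. Leaving out both replicates numbered 3 gave 1 member higher (Per1), 1 lower (Arntl) and 4949 genes called. Signs of near-zero log2 fold changes turned: over these fits Per2 ranged from -0.10 (without control replicate 1) to 0.21 (without control replicate 3), with -0.04 without SENP7 replicate 3 and -0.027 without control replicate 2. Per3 ranged from -0.025 (without control replicate 1; also -0.025 without SENP7 replicate 3) to 0.28, Nr1d1 from -0.024 (without control replicate 2) to 0.045, Nr1d2 from -0.14 to 0.0056 (without control replicate 3), and the Per1 over Per3 difference from -0.030 (without control replicate 3) to 0.20. The causes were not tested. Depth limits Fbxl21 and Hlf, and single-time bulk levels with 3 libraries a group limit the rest.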

Other observations

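Genes whose pattern over the 6 libraries was most like that of Arntl were Endod1 (Pearson r = 0.99), Iqcg (0.99) and Osbpl11 (0.98), among 11271 tested genes with a mean of at least 50, on log2(normalized count + 1). Like Arntl, they were highest in control replicate 2, with Endod1 at 1793 there against 1545 in control replicate 3 and 1551 to 1622 under SENP7 siRNA. For Nr1d1 they were Acad9, a mitochondrial acyl-CoA dehydrogenase family gene, Tbx3, a T-box factor gene, and Dzip1l (0.99, 0.98 and 0.97). Tbx3 counts were 438, 415 and 503 in control replicates 1, 2 and 3 and 449, 456 and 469.9 in the SENP7 replicates. These are a description, with no test.

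Per kilobase of exon, Arntl2 made up 9.76% to 15.5% of the sum of Arntl2 and Arntl in the controls and 7.56% to 12.1% under SENP7 siRNA, with overlap. This pair was chosen after its values were seen.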
